A study of Mus musculus with 16 samples.

Results

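The expression of 10 genes that set the liver's glucose output and its response to insulin was followed in whole-liver RNA of mice with and without NKG2D. They were taken by name from the deposited table of 25719 genes, and each name matched 1 row. The genes encode the gluconeogenic enzymes PCK1, G6PC and FBP1, the transcriptional regulators PGC-1α (Ppargc1a), FOXO1, CRTC2 and the kinase SIK1, and the insulin receptor (Insr) with its substrates IRS1 and IRS2.

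In fasting, the liver makes glucose from lactate, glycerol and amino acids by gluconeogenesis. Glucagon raises cAMP, which inactivates SIK1 and related kinases, so that CRTC2 enters the nucleus and acts with CREB on Pck1, G6pc and Ppargc1a, while PGC-1α acts with FOXO1 on the same enzymes. Insulin acts in the opposite direction. Its receptor phosphorylates IRS1 and IRS2, which recruit phosphatidylinositol 3-kinase, and the kinase AKT downstream of it drives FOXO1 out of the nucleus. Irs2 and Insr are themselves FOXO1 targets, and Sik1 is itself induced by cAMP. Much of this control lies in phosphorylation and location of proteins, which mRNA levels do not measure.

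The study asked how NKG2D, an activating receptor on innate-like lymphocytes encoded by Klrk1, takes part in diet-induced fatty liver disease. WT mice, labelled with the strain C57BL6J, and Klrk1-/- mice, labelled Klrk1 KO with the strain NKG2D, received a normal chow diet (NCD) or a steatosis-steatohepatitis diet (SSD) enriched in fat, fructose and cholesterol. There were 4 WT mice on NCD, 5 WT mice on SSD, 4 Klrk1-/- mice on NCD and 3 Klrk1-/- mice on SSD, with 1 library per mouse. Per the methods the mice were males of 8 to 12 weeks that fed ad libitum, and the SSD lasted 3 weeks. Klrk1-/- is a deletion in every cell of the animal rather than in lymphocytes alone, and the sources used here name no other allele or agent in any group. Genotype goes with the strain label, so a colony difference and the loss of Klrk1 cannot be told apart here. The hour of collection and the last meal of each mouse are not given in the sources used here. Values belong to separate mice, so p-values measure the spread between mice of a group.

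The deposited value is a normalized count, the reads of a gene in a sample divided by a factor of that sample. Libraries held between 19892025 and 28936707 reads on genes. Klrk1 itself lay between 20.1 and 71.1 normalized counts in the 9 WT mice and between 0.966 and 8.71 in the 7 Klrk1-/- mice, without overlap. The summed level of 6 hepatocyte markers was between 1411789 and 2801724 normalized counts in all mice. In contrast, 5 of 6 adipocyte markers (Adipoq, Plin1, Lep, Retn and Cidea) and all 4 skeletal muscle markers stayed at 3 reads or fewer in every mouse. WT mouse 1 on SSD stood apart from the other four of its group, with a chi-square per gene of 73.2 to 101 against each of them and 18.8 to 36.1 among them. The calls of the 10 genes that involve its group were the same without it. Klrk1-/- mouse 3 on NCD also stood apart, with 36.5 to 43.0 against the other three and 14.2 to 17.4 among them. Without it Fbp1 and Crtc2 lost their calls between genotypes on NCD, Sik1 gained one for the diet in Klrk1-/- mice, and the interaction of Sik1 kept its call. In bulk liver, fewer cells of a type and less RNA per cell cannot be told apart.

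Compared per 1000 bases of the gene length in the deposited table, the enzymes lay far above the other genes. In the NCD-fed WT mice Pck1 reached 36028 ± 2414 normalized counts per 1000 bases (SD, n = 4), followed by Fbp1 at 15570.4 ± 4428 and G6pc at 4037 ± 1331. Insr followed at 570.5 ± 43.3, Crtc2 at 398 ± 44.9, Sik1 at 376 ± 76.9 and Irs2 at 123 ± 16.9. Irs1, Foxo1 and Ppargc1a were the lowest, at 91.2 ± 8.41, 59.6 ± 9.9 and 42.0 ± 9.2. The SDs of neighbours overlap for Crtc2 and Sik1, and for Foxo1 and Ppargc1a. The order below the enzymes depends on the length that is used. The union of annotated exons is 12121 bases for Sik1 and 13776 bases for Insr, against 2057 and 3254 bases in the deposited table, and with the union the level of Sik1 in the same mice is 63.8 and that of Insr 135 normalized counts per 1000 bases.

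**Figure D1:**
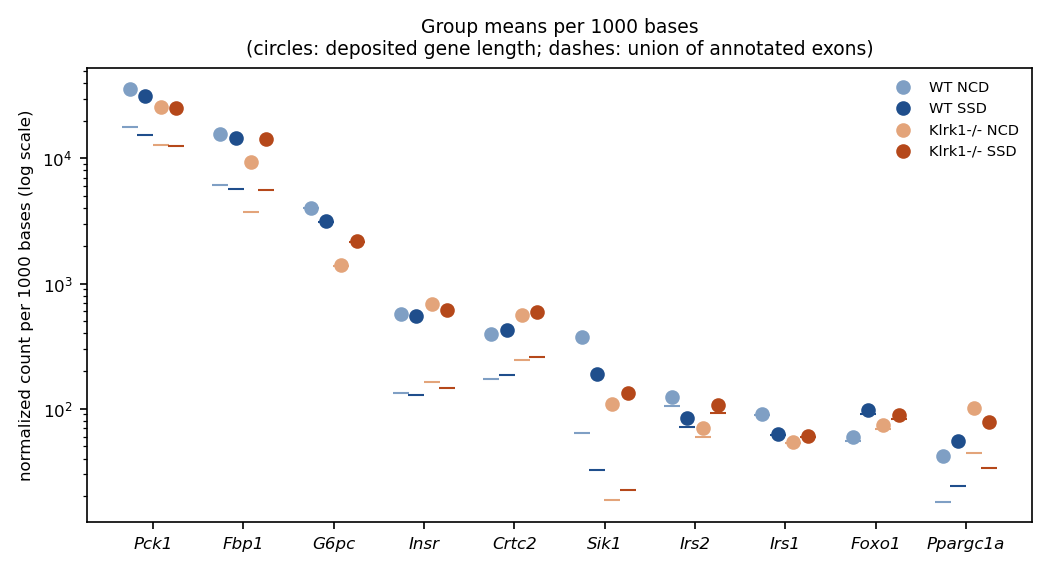
Group means of the 10 genes per 1000 bases, on a log axis, with circles for the gene length in the deposited table and dashes for the union of exons in the annotation, and a colour for each of the 4 groups. The 3 enzymes lie above the other genes with both lengths, from 36028 for Pck1 to 1401 for G6pc on the deposited length, and Sik1 and Insr move most between the lengths.

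On GRCm39, Pck1 lies at chr2:172994841-173001066, G6pc (G6pc1 in current annotation) at chr11:101258387-101268729 and Fbp1 at chr13:63012567-63036096. Ppargc1a lies at chr5:51611592-51725068, Foxo1 at chr3:52175757-52260642, Crtc2 at chr3:90161470-90171432 and Sik1 at chr17:32063224-32074778. Insr (chr8:3172061-3329617) and Irs2 (chr8:11034681-11058458) share a chromosome, and Irs1 lies at chr1:82210822-82269137. Exons of Foxo1, Insr, Irs1 and Irs2 overlap those of genes on the opposite strand. Whether reads were counted by strand is not stated in the sources used here, so reads of these 4 genes and their partners cannot be told apart.

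Promoters from RefSeq, 250 bases before to 50 after the start of transcription, were at hand for 7 of the 10 genes and not for Crtc2, Sik1 and Insr. They were searched on both strands for the cAMP response element TGACGTCA, its half-site TGACG (which lies inside the full element), the FOXO motif GTAAACA and the TATA box TATAAA. The half-site stood in Pck1, Ppargc1a and Irs1 and the TATA box in G6pc. Neither TGACGTCA nor GTAAACA stood in any of the 7 windows. Of the 32544 distinct promoter sequences in the table, 20.9% hold the half-site, 13.6% the TATA box, 3.66% GTAAACA and 1.8% TGACGTCA. A match describes the letters and is no evidence of binding. Pck1 and Ppargc1a are shown because both are known targets of CRTC2, and G6pc because its level differed most of the 3 enzymes between genotypes on NCD. The table is of build GRCm38.p6, and each window was found once, without a mismatch, in GRCm39. In capitals are the half-site on the minus strand, read here as CGTCA, 90 bases before the start in Pck1 and 49 bases before it in Ppargc1a, and the TATA box 29 bases before the start in G6pc. Starts here are those of RefSeq. The distance from them to the nearest transcript start of the gene in GENCODE M39 is 0 bases for Pck1, 1 for Ppargc1a and 173 for G6pc. The spans given above are those of the deposited table, and need not begin at a GENCODE M39 start. The span of G6pc begins upstream of the RefSeq start, at a shorter distance than that, and holds the TATA box. For Irs1 and Irs2, on the minus strand, the distance to the nearest GENCODE M39 start is 178 and 570 bases. Their spans given above also begin closer to the RefSeq start.
Pck1, chr2:172994616-172994915, plus strand: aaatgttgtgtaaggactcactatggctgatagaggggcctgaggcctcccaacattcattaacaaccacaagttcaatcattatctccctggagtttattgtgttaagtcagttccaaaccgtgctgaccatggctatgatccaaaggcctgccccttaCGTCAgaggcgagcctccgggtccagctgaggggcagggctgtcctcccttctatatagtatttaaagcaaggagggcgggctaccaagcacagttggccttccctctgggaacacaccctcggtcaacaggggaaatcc
Ppargc1a, chr5:51725018-51725317, minus strand: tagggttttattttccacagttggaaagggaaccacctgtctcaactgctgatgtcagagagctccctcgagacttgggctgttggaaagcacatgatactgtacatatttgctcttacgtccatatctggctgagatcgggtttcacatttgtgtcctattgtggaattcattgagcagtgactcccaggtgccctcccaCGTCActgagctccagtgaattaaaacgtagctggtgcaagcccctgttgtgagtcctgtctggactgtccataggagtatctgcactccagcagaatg
G6pc, chr11:101258292-101258591, plus strand: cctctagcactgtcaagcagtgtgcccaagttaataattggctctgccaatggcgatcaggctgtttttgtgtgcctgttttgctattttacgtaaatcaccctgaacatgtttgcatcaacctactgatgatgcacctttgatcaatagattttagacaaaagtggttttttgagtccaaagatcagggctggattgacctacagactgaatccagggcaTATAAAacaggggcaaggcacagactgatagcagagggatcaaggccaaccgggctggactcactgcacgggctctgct

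The genotypes were first compared on NCD, where no dietary stress was applied. All 10 genes were tested by limma on log2(normalized count + 1), and 7 passed an adjusted p of 0.05, beside 13.1% of the 12845 genes tested. Without single mice that share was 5.59% (Klrk1-/- mouse 3) to 17.1% (WT mouse 5), and it was 7.51%, 7.14% and 8.37% without WT mouse 1, 2 or 3 and 6.55% without Klrk1-/- mouse 2. In 8 of the 10 genes the 4 Klrk1-/- mice did not overlap the 4 WT mice, beside 19.3% of all genes tested. G6pc, Fbp1, Sik1, Irs1 and Irs2 were lower in the Klrk1-/- mice, and Ppargc1a and Crtc2 were higher. The median log2 fold change of the 10 genes was -0.61, against 0.00 for all genes tested.

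G6pc encodes the catalytic subunit of glucose-6-phosphatase, which frees glucose from glucose-6-phosphate in the last step of gluconeogenesis and glycogen breakdown. The NCD-fed WT mice, in the order of their numbers, had 7780, 13187.5, 11667.5 and 6342 normalized counts of G6pc. The Klrk1-/- mice had 4532, 2979, 2937 and 3082.5. All 4 Klrk1-/- mice lay below the lowest WT mouse, and the WT mice were spread over a wider range. The level was 2.81-fold lower in Klrk1-/- mice, a log2 fold change of -1.49 (standard error, SE, 0.21, adjusted p = 0.00122 in limma). The exact permutation test gave p = 0.0286, the smallest that 4 mice against 4 allow.

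Fbp1, which encodes fructose-1,6-bisphosphatase of the same pathway, had 15991, 19596, 11899.5 and 10497.5 normalized counts in the WT mice. In the Klrk1-/- mice it had 9136, 8657, 7406 and 9935. The groups were apart by a narrow gap, and the difference was 1.61-fold, a log2 fold change of -0.69 (SE 0.17, adjusted p = 0.0225 in limma). This call was lost without WT mouse 1 or 2 or Klrk1-/- mouse 2 or 3, with an adjusted p between 0.0514 and 0.0673. Pck1 encodes the cytosolic phosphoenolpyruvate carboxykinase that opens the pathway from oxaloacetate. It had 63054, 61512, 69633 and 70099 normalized counts in the WT mice and 67675.5, 32546, 47836 and 40921 in the Klrk1-/- mice. Klrk1-/- mouse 1 lay among the WT mice and the other three below them. The log2 fold change of Pck1 was -0.53 with a 95% interval from -0.92 to -0.14, and its limma adjusted p of 0.067 did not pass. It passed in DESeq2 (log2 fold change -0.48, adjusted p = 0.0386) and without Klrk1-/- mouse 1 (-0.72, adjusted p = 0.0107).

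Ppargc1a encodes the coactivator PGC-1α, which drives mitochondrial and gluconeogenic genes. It had 94.1, 116, 155 and 146 normalized counts in the WT mice and 278, 246, 399 and 319 in the Klrk1-/- mice. Every Klrk1-/- mouse was above every WT mouse, by a log2 fold change of 1.28 (SE 0.18, adjusted p = 0.00121 in limma) or 2.43-fold. Crtc2, the coactivator of CREB, had 623.5, 730, 743 and 824 normalized counts in the WT mice and 1006, 1009, 1200.1 and 886 in the Klrk1-/- mice. It was 1.4-fold higher, a log2 fold change of 0.49 (SE 0.11, adjusted p = 0.0168 in limma), and without Klrk1-/- mouse 3 its adjusted p was 0.0507. Foxo1, the transcription factor that insulin restrains, overlapped between genotypes, at 516.8 ± 85.8 normalized counts (SD, n = 4) in WT and 640.8 ± 102 in Klrk1-/- mice (limma adjusted p = 0.16).

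Sik1, the salt-inducible kinase that phosphorylates CRTC2 and keeps it in the cytoplasm, stood furthest apart of the 10 genes. It had 738, 672, 1006 and 677.5 normalized counts in the WT mice on NCD. In the Klrk1-/- mice it had 241, 202, 279 and 178. The lowest WT mouse was above the highest Klrk1-/- mouse by a wide margin, and the difference was 3.43-fold, a log2 fold change of -1.78 (SE 0.16, adjusted p = 5.28e-05 in limma). By its p-value Sik1 ranked 11 among the 12845 genes tested. Sik1, G6pc, Ppargc1a and Irs2 passed in each of the 18 other settings of scaling, filter, tool, model and left-out mouse that were run for this comparison, apart from limits on the fold change.

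The insulin receptor itself was at 1856 ± 141 normalized counts in WT and 2243 ± 225 in Klrk1-/- mice (SD, n = 4 each). All 4 Klrk1-/- mice lay above the WT mice, yet the log2 fold change of Insr, 0.27 with a 95% interval from 0.07 to 0.47, did not pass the test (limma adjusted p = 0.0724). It passed in DESeq2 (adjusted p = 0.0447) and with all 4 groups in a single model (0.038). Irs2, the substrate that carries much of the fasting-to-fed switch in liver, had 726, 653, 865.5 and 869.6 normalized counts in the WT mice and 378, 379.5, 524 and 478.5 in the Klrk1-/- mice. The groups were apart, and Irs2 was 1.77-fold lower, a log2 fold change of -0.83 (SE 0.13, adjusted p = 0.00269 in limma). Irs1 had 845, 897, 869 and 723 normalized counts in WT and 612, 309.8, 662 and 407 in Klrk1-/- mice. It was 1.75-fold lower (log2 fold change -0.80, SE 0.20, limma adjusted p = 0.0219). The Klrk1-/- mice fell into a higher and a lower pair for Irs1, and without WT mouse 1 or 2 its adjusted p was 0.0532 or 0.0619.

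**Figure D2:**
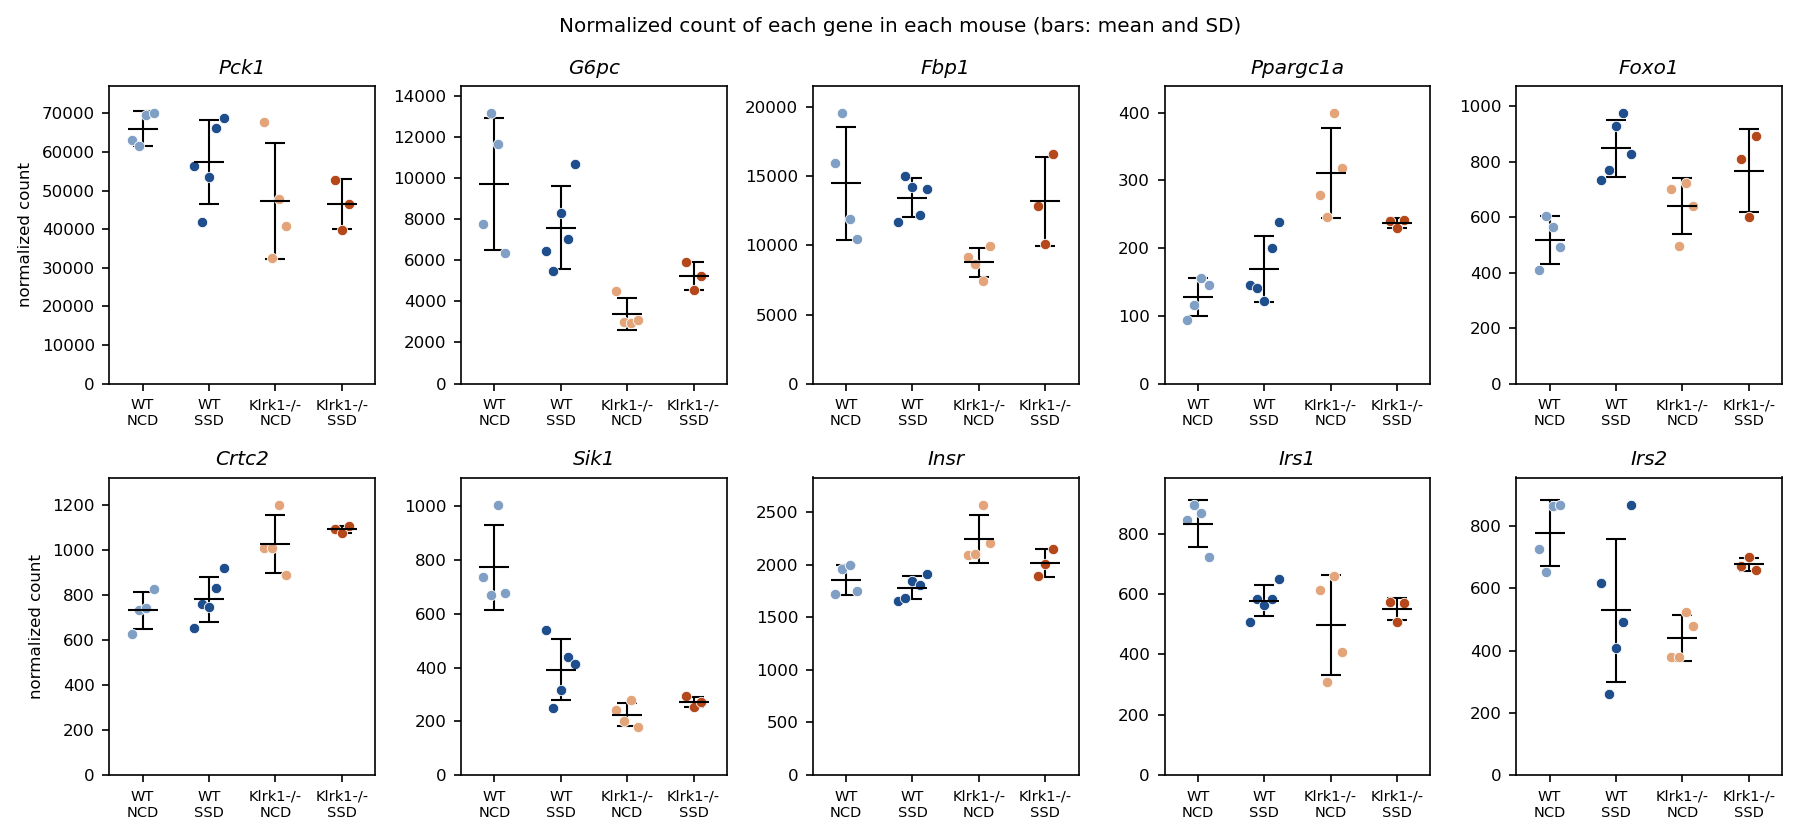
Normalized count of each of the 10 genes (vertical axes, from 0) in each of the 16 mice (points), by genotype and diet, with the mean and SD of each group as bars. On NCD the Klrk1-/- mice lie below the WT mice for G6pc, Fbp1, Sik1, Irs1 and Irs2 and above them for Ppargc1a, Crtc2 and Insr, and the 3 SSD-fed Klrk1-/- mice lie close together for Ppargc1a (SD 7.08), Crtc2 (SD 16) and Irs2 (SD 20.5).

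The other genes of these pathways were read from lists, each with its count of members past the same threshold. Of all genes tested on NCD 6.41% were higher and 6.66% lower in Klrk1-/- mice. On NCD 3 of 21 other gluconeogenesis enzymes and transporters passed, all lower in Klrk1-/- mice: phosphoglycerate mutase Pgam1 (log2 fold change -0.62), lactate dehydrogenase Ldha (-0.42) and the glucose transporter Slc2a2 (-0.38). Of 34 other transcriptional regulators 3 were higher and 2 lower. Nr0b2, which encodes the corepressor SHP, was at 651 ± 119 normalized counts in WT and 2515 ± 397 in Klrk1-/- mice (SD, n = 4 each, log2 fold change 1.95, SE 0.14, limma adjusted p = 7.64e-06), Sirt1 was higher by 0.51, and Prkaa2, a catalytic subunit of AMPK, was lower by a log2 fold change of -0.54. Prkaa1, which also encodes a catalytic subunit of AMPK, passed in the other direction, at 204.8 ± 22.3 normalized counts in WT and 263.6 ± 12.4 in Klrk1-/- mice. Among 19 genes of glucagon and cAMP signalling the adenylyl cyclase Adcy6 was higher (0.62) and the phosphodiesterase Pde3b lower (-0.39).

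In the insulin signalling cascade 2 of 32 genes were higher and 3 lower in the NCD-fed Klrk1-/- mice. The growth inhibitor Tsc1 was higher (log2 fold change 0.89, limma adjusted p = 0.00102), and the regulatory subunit Pik3r1 of phosphatidylinositol 3-kinase (-0.60) and the atypical kinase Prkcz (-0.60) were lower. Of 29 inhibitors of insulin signalling 3 were higher and 2 lower, among them the adaptor Grb7 (0.50), the phosphatase Inpp5k (0.65) and the receptor phosphatase Ptprf (-0.49). Of 22 targets of FOXO1 and fasting 4 were higher and 3 lower. Igfbp1, an IGF-binding protein induced by FOXO1, was at 2486 ± 758 normalized counts in WT and 987 ± 112 in Klrk1-/- mice, a log2 fold change of -1.29 (SE 0.17, adjusted p = 0.000957 in limma), while Klf10 (1.56) and the phosphatidate phosphatase Lpin1 (1.22) were higher.

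Glycolytic and insulin-induced genes split into 2 higher and 3 lower of 29, with Pfkfb1 higher (log2 fold change 0.64) and the lipogenic regulator Srebf1 lower (-0.42). Of 16 genes of glycogen metabolism 1 was lower, the branching enzyme Gbe1 (-0.86). The median log2 fold changes of these 8 pathway lists lay between -0.08 and 0.05, beside 0.00 for all genes tested. Other genes that respond to cAMP, hormones or the hour of the day moved in the same comparison. Of 17 time-of-day genes 2 were higher and 4 lower, with Per2 at 849 ± 211 normalized counts in WT and 364 ± 39.1 in Klrk1-/- mice (log2 fold change -1.19, limma adjusted p = 0.00117), Hlf lower (-0.49) and Npas2 higher (0.65). Of 9 glucocorticoid-responsive genes Zbtb16 (log2 fold change 3.05) and Fkbp5 (1.05) were higher and Sgk1 (-1.36) was lower. None of the 5 genes of a red cell list (globins and Alas2) passed in limma, edgeR or DESeq2, and 0 had an unadjusted p under 0.05. Of 13 immediate early genes Ier2 (0.76) and Egr1 (1.62) were higher and Myc (-1.80) was lower. The part of these genes in the differences of the 10 genes was not tested. Marker genes of other cell types gave few calls in this comparison, with 1 of 5 sinusoidal endothelial markers and 1 of 4 B cell markers higher, and 1 of 5 bile duct and 1 of 6 hepatocyte markers lower.

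**Figure D3:**
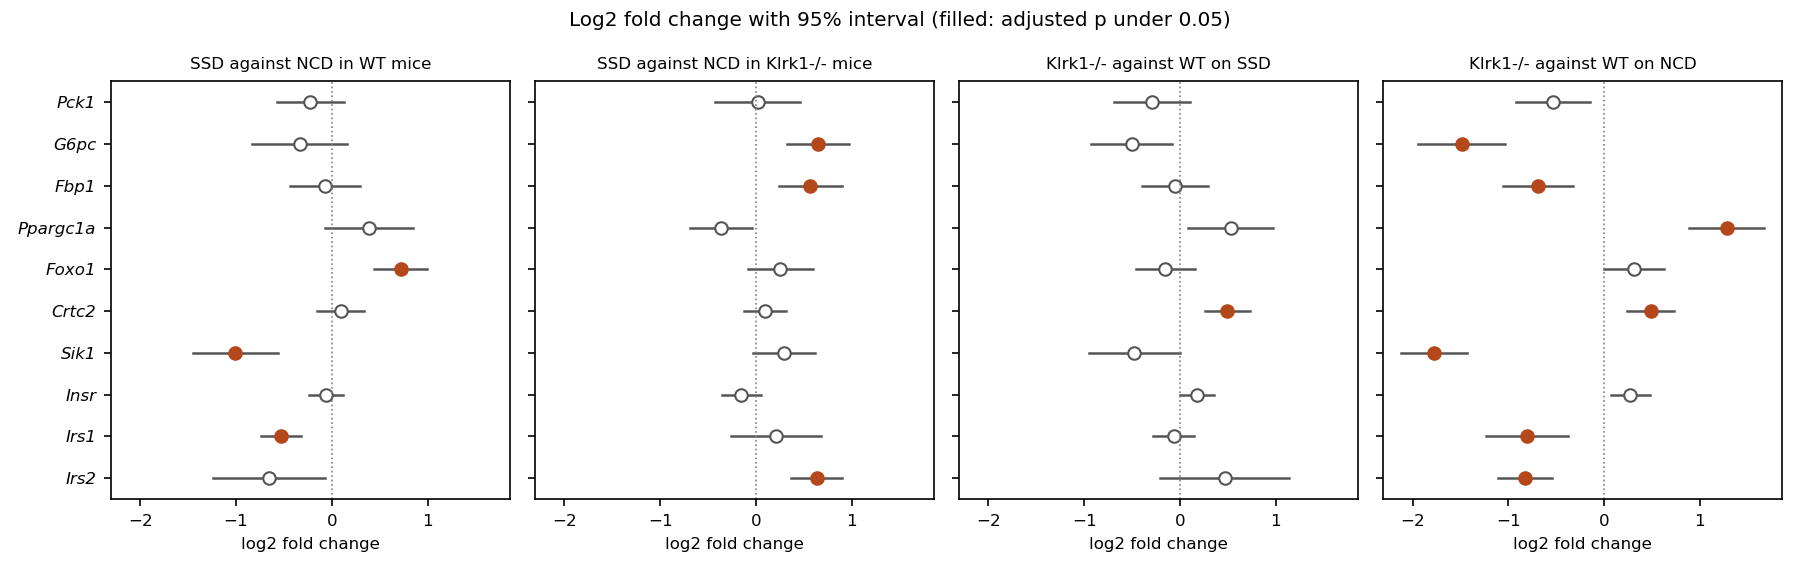
Log2 fold change of each of the 10 genes (points) with its 95% interval (lines) in the 4 comparisons of groups, filled where the limma adjusted p is under 0.05. Filled points number 3 for SSD against NCD in WT mice, 3 in Klrk1-/- mice, 1 between genotypes on SSD and 7 between genotypes on NCD.

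The response to the diet was then read in WT mice, NCD-fed mice being shared with the comparison above. Of the 10 genes 3 passed the test, beside 34.9% of the 13091 genes tested, and the same 3 did not overlap between diets, beside 29% of all genes. Foxo1 rose, and Sik1 and Irs1 fell. The enzymes Pck1, G6pc and Fbp1 did not pass. The median log2 fold change was -0.15 for the 10 genes and 0.00 for all genes tested.

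Foxo1 had 409, 604, 563 and 491 normalized counts in the 4 NCD-fed WT mice and 735, 771, 929, 975 and 829 in the 5 SSD-fed mice. All SSD-fed mice lay above all NCD-fed mice. The rise was 1.65-fold, a log2 fold change of 0.72 (SE 0.13, adjusted p = 0.00128 in limma), with an exact permutation p of 0.0159, the smallest that 4 mice against 5 allow. It passed in each of the 19 other settings that were run, apart from limits on the fold change.

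Sik1 in the 5 SSD-fed WT mice was at 539, 249, 318, 439.7 and 415 normalized counts, all below the 4 NCD-fed mice given above. It fell 2.01-fold, a log2 fold change of -1.01 (SE 0.20, adjusted p = 0.00294 in limma), and passed in each of the 19 other settings. Irs1 was at 508, 583, 565, 583 and 651.5 normalized counts on SSD, below every NCD-fed WT mouse. Its fall was 1.44-fold, a log2 fold change of -0.53 (SE 0.10, adjusted p = 0.00165 in limma). Scaling every library to the same total moves the median of all genes to 0.34 in this comparison, and on that scale the log2 fold change of Irs1 was -0.18 (adjusted p = 0.127).

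Irs2 varied widely among the SSD-fed WT mice, at 618, 260.2, 409, 492 and 868 normalized counts. WT mouse 5 on SSD lay within the NCD-fed mice and the other four below them. The log2 fold change was -0.66 with a 95% interval from -1.24 to -0.07 (limma adjusted p = 0.0753), and without that mouse it was -0.86 (adjusted p = 0.0111). With all 4 groups in a single model Irs2 also passed (adjusted p = 0.0307). Insr, at 1782 ± 109 normalized counts on SSD (SD, n = 5), differed by -0.06 (interval -0.24 to 0.12). Crtc2, at 780.1 ± 99.8, differed by 0.09 (interval -0.15 to 0.34), and Ppargc1a, at 169 ± 48.4, by 0.39 (interval -0.07 to 0.85). On SSD Pck1 averaged 57400 ± 10810 normalized counts, and its log2 fold change was -0.22 (interval -0.57 to 0.12). G6pc, at 7602.5 ± 2007, gave -0.33 (interval -0.83 to 0.16), and Fbp1, at 13452.5 ± 1410.4, gave -0.07 (interval -0.44 to 0.29). On the scale of equal totals the log2 fold changes of Pck1, G6pc, Fbp1 and Insr turned positive, and Insr, Crtc2 and Ppargc1a passed with log2 fold changes of 0.29, 0.44 and 0.73. On that scale 5 of the 10 genes passed, beside 53.7% of all genes.

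The counts of the lists in WT mice on SSD stand beside 17.3% of all genes tested that rose and 17.6% that fell. Of 21 other gluconeogenesis enzymes 3 rose and 7 fell. Mitochondrial Pck2 rose from 129 ± 18.5 to 530 ± 177 normalized counts (log2 fold change 1.99, limma adjusted p = 3.18e-05), and the transaminase Gpt (-0.87) and triose phosphate isomerase Tpi1 (-0.62) fell. Of 34 transcriptional regulators 4 rose and 6 fell, with Nr0b2 rising (1.19) and the receptor Esrra, a partner of PGC-1α, falling (-0.64), as did Cebpa (-0.63). Of 19 genes of glucagon and cAMP signalling 4 rose and 4 fell, among them the phosphodiesterases Pde4d (1.70) and Pde4b (-1.66) and the cyclase Adcy6 (0.86).

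In the insulin signalling cascade 4 of 32 genes rose and 3 fell, with Pik3r3 (-1.45) and Prkcz (-0.76) falling and the translational repressor Eif4ebp1 rising (0.69). Of 29 inhibitors 5 rose and 2 fell. Trib3, a pseudokinase that binds AKT, rose from 93.7 ± 17.5 to 485 ± 268 normalized counts (log2 fold change 2.25, limma adjusted p = 0.000109). Of 22 targets of FOXO1 and fasting 9 rose and 5 fell, with a median log2 fold change of 0.38. The hepatokine Fgf21 rose from 9.07 ± 5.05 to 1589 ± 540 normalized counts (log2 fold change 7.38), Klf10 by 2.08 and the stress gene Sesn2 by 1.32, while Tat, an enzyme of amino acid breakdown, fell by 2.05. Of 29 glycolytic and insulin-induced genes 3 rose and 10 fell, among them the lipogenic genes Acly (-1.85) and Thrsp (-4.20) and also Pfkfb1 (-1.36). Of 16 genes of glycogen metabolism 4 rose and 3 fell.

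Cell type markers moved with the diet in WT mice. Of 6 hepatocyte markers 3 fell, and their sum was between 2201206.5 and 2495955 normalized counts on NCD and between 1411789 and 1787291 on SSD. Of 5 sinusoidal endothelial markers 4 rose, with sums from 1999.5 to 3369 on NCD and from 3152 to 3913 on SSD. Of 6 stellate cell markers 3 rose, with sums from 4861 to 6169 on NCD and from 5435 to 25531 on SSD, and 2 of 6 macrophage markers rose (4336 to 5081 on NCD, 5226 to 12292.5 on SSD). Of 3 T and NK cell markers tested 1 rose, with sums of the whole list from 33.8 to 52.1 on NCD and from 65.3 to 97.6 on SSD, and the 1 adipocyte marker tested rose, with sums from 140 to 224 on NCD and from 293 to 521 on SSD. Of 15 immediate early genes 8 rose and 1 fell, with Atf3 at 2.96 and Egr1 at 2.29 on the log2 scale. Of 9 glucocorticoid-responsive genes 5 rose and 1 fell, of 17 time-of-day genes 3 rose and 3 fell, and of the 5 genes of the red cell list Alas2, an enzyme of heme synthesis, fell (-0.69) and none of the globin genes passed. The part of these genes and markers in the changes of Foxo1, Sik1 and Irs1 was not tested.

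In Klrk1-/- mice, too, 3 of the 10 genes passed for SSD against NCD, beside 29.4% of the 12904 genes tested (18.6% without SSD-fed mouse 1), and 4 did not overlap between diets, beside 37.6% of all genes. G6pc, Fbp1 and Irs2 rose. Foxo1, Sik1 and Irs1 did not pass here. The median log2 fold change was 0.23 for the 10 genes and 0.00 for all genes tested. With 4 mice against 3 the exact permutation test cannot go below 0.0571, which all 4 genes without overlap reached.

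G6pc was at 5941, 4557 and 5233 normalized counts in the 3 SSD-fed Klrk1-/- mice, all above the NCD-fed Klrk1-/- mice, of which mouse 1 at 4532 came close. The rise was 1.57-fold, a log2 fold change of 0.65 (SE 0.15, adjusted p = 0.0069 in limma). Fbp1 was at 12852, 10127 and 16602 normalized counts on SSD, against at most 9935 on NCD. It rose 1.48-fold, a log2 fold change of 0.57 (SE 0.15, adjusted p = 0.0154 in limma), and without SSD-fed mouse 1 or 3 its adjusted p was 0.0506 or 0.0677. Pck1 had 52802, 39862.5 and 46637.5 normalized counts on SSD and overlapped the NCD-fed mice, with a log2 fold change of 0.02 (interval -0.43 to 0.46).

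Irs2 was at 673, 700.3 and 660 normalized counts on SSD, close to each other and above every NCD-fed Klrk1-/- mouse. It rose 1.55-fold, a log2 fold change of 0.64 (SE 0.12, adjusted p = 0.0025 in limma). With all 4 groups in a single model, which pools their spread, the adjusted p was 0.0571 for G6pc and 0.0895 for Irs2. Ppargc1a was at 240.5, 229 and 242 normalized counts on SSD, below every NCD-fed Klrk1-/- mouse, but its log2 fold change of -0.36 (interval -0.69 to -0.04) did not pass (limma adjusted p = 0.0815). It passed without NCD-fed mouse 2 (-0.47, adjusted p = 0.0326), as Sik1 did without NCD-fed mouse 3 (0.40, adjusted p = 0.0387). The intervals of the log2 fold change were -0.08 to 0.59 for Foxo1, -0.12 to 0.32 for Crtc2, -0.03 to 0.61 for Sik1, -0.35 to 0.05 for Insr and -0.26 to 0.68 for Irs1. Scaling to equal totals moved the median of all genes to 0.25, and Foxo1 (0.51), Crtc2 (0.35) and Sik1 (0.55) then passed as well, while Insr turned positive (0.10). On that scale 6 of the 10 genes passed, beside 43.7% of all genes.

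In Klrk1-/- mice on SSD 13.4% of all genes tested rose and 16% fell. Of 21 other gluconeogenesis enzymes 7 rose and 5 fell. Glucose phosphate isomerase Gpi1 (log2 fold change 0.74) and Ldha (0.89) rose, as did pyruvate carboxylase Pcx (0.58), which makes the oxaloacetate that PCK1 uses, and the transaminase Got1 fell (-1.18). Of 34 transcriptional regulators 5 rose and 2 fell, with Pprc1, a relative of PGC-1α, at 0.81, Prkaa2 at 0.58 and Foxo3 at -0.47. Of 19 genes of glucagon and cAMP signalling 2 rose and 2 fell, among them Pde4a (1.12) and the adrenergic receptor Adra1b (-1).

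Of 32 genes of the insulin signalling cascade 5 rose and 2 fell, with Eif4ebp1 (0.62), Mtor (0.41) and Pik3r2 (0.34) rising. Of 28 inhibitors 6 rose and 2 fell, with the receptor inhibitor Enpp1 (0.73) and Trib3 (0.99) rising and Grb7 falling (-0.58). Of 22 targets of FOXO1 and fasting 10 rose and 5 fell, with Fgf21 at 5.43, the fatty acid oxidation enzyme Cpt1a at 0.81 and Tat at -2.15. Of 29 glycolytic and insulin-induced genes 5 rose and 13 fell, with Thrsp at -4.55, Pfkfb1 at -1.67 and fatty acid synthase Fasn at -1.85. Of 16 genes of glycogen metabolism 5 rose and 2 fell, with Gys2 at 0.50.

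Of 6 hepatocyte markers 4 fell and of 6 stellate cell markers 4 rose in the same mice, whose hepatocyte sums lay between 2107911.5 and 2801724 normalized counts on NCD and between 1887276 and 2052035 on SSD. Stellate sums lay between 4702 and 6351 on NCD and between 6892 and 8361.5 on SSD. Of 6 macrophage, 5 sinusoidal endothelial and 5 bile duct markers 1 each rose, and 1 pancreas acinar marker fell. Of 13 immediate early genes 4 rose and 1 fell, of 9 glucocorticoid-responsive genes 3 rose and 1 fell, and of 17 time-of-day genes 1 fell, Per2 (-1.07). Of the 5 genes of the red cell list Alas2 fell (-0.46) and none of the globin genes passed. The part of these genes and markers in the rises of G6pc, Fbp1 and Irs2 was not tested.

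**Figure D4:**
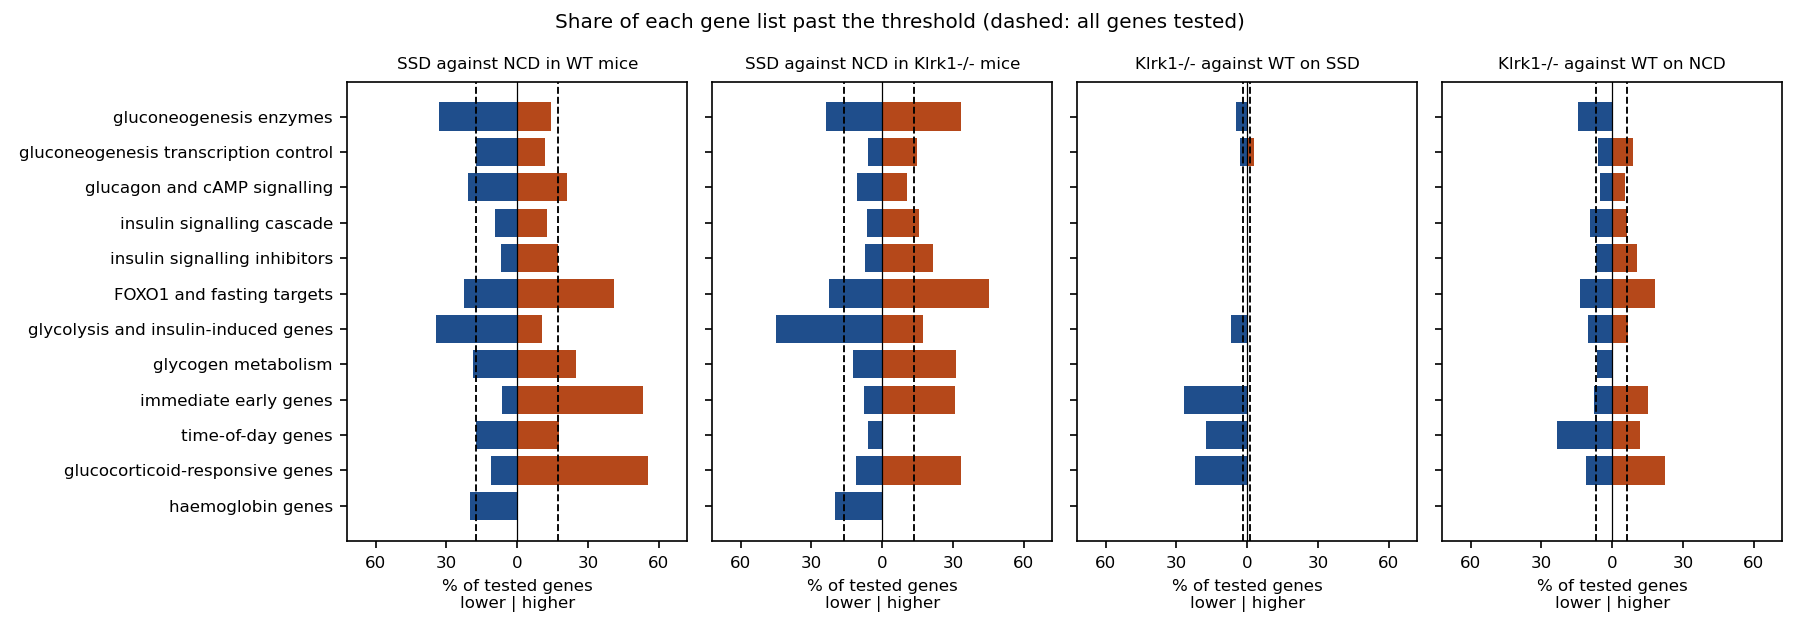
Share of the tested genes of each of 12 lists that passed a limma adjusted p of 0.05, in percent, with genes higher in the first-named group to the right and lower ones to the left (haemoglobin genes in the plot are the red cell list), in the 4 comparisons, and dashed lines at the shares of all genes tested. On SSD 9 of 22 targets of FOXO1 and fasting rose and 5 fell in WT mice, and 10 rose and 5 fell in Klrk1-/- mice, while of 29 glycolytic and insulin-induced genes 3 rose and 10 fell in WT and 5 rose and 13 fell in Klrk1-/- mice. The differences between these counts were not tested.

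Whether the diet acted differently in the 2 genotypes was tested as an interaction over all 16 mice. Of the 10 genes 1 passed, Sik1, beside 0.88% of the 13068 genes tested. Without single mice that share was 0.283% (SSD-fed Klrk1-/- mouse 3) to 1.43% (SSD-fed WT mouse 5), and it fell by more than 1.5-fold also without SSD-fed Klrk1-/- mouse 1 (0.298%), NCD-fed Klrk1-/- mouse 1 or 2 (0.528% and 0.482%), NCD-fed WT mouse 1 or 3 (0.535% and 0.582%) or SSD-fed WT mouse 4 (0.506%). The log2 effect of SSD on Sik1 was 1.30 higher in Klrk1-/- than in WT mice (SE 0.29, 95% interval 0.70 to 1.90, limma adjusted p = 0.0362). In WT mice Sik1 was at 773 ± 158 normalized counts on NCD (SD, n = 4) and 392 ± 112 on SSD (SD, n = 5), whereas in Klrk1-/- mice it was 224.9 ± 44.2 normalized counts on NCD (SD, n = 4) and 272 ± 19.1 on SSD (SD, n = 3). This call held in 11 of the 25 other settings, with an adjusted p between 0.00328 and 0.123 over all of them.

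Irs2 had an interaction of the same size, 1.30 (SE 0.35, interval 0.56 to 2.04), with more spread, and did not pass (limma adjusted p = 0.0877). It passed without WT mouse 5 on SSD (1.501, adjusted p = 0.0149) and in DESeq2 (1.18, adjusted p = 0.0316). The difference of effects was 0.98 for G6pc (interval 0.31 to 1.65, adjusted p = 0.138), 0.74 for Irs1 (interval 0.21 to 1.26, adjusted p = 0.152) and 0.64 for Fbp1 (interval 0.11 to 1.17, adjusted p = 0.212). It was -0.75 for Ppargc1a (interval -1.36 to -0.14, adjusted p = 0.202) and -0.46 for Foxo1 (interval -0.92 to -0.01, adjusted p = 0.278). None of these 6 passed over all genes. The intervals included 0 for Pck1 (-0.34 to 0.82), Crtc2 (-0.33 to 0.34) and Insr (-0.35 to 0.16). Since all of these values rest on the same NCD-fed and SSD-fed mice, they are not independent of the fold changes above.

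Among the lists, the interaction passed for Nr0b2 (-1.79) and Esrra (0.52) of the transcriptional regulators, for Lpin1 (-1.93) and Klf10 (-1.29) of the targets of FOXO1 and fasting, for the immediate early gene Atf3 (-2.35) and for Zbtb16 (-2.63) of the glucocorticoid-responsive genes. Nr0b2 was at 1508 ± 408 normalized counts in SSD-fed WT mice and at 1744.5 ± 649 in SSD-fed Klrk1-/- mice. Esrra was at 909 ± 46.5 on NCD and 583 ± 30.8 on SSD in WT mice, and at 753.5 ± 63.8 and 691.5 ± 39 in Klrk1-/- mice. In limma no gene passed of the 21 gluconeogenesis enzymes, the 19 genes of glucagon and cAMP signalling, the 32 of the insulin signalling cascade or the 29 inhibitors, with 5, 3, 5 and 5 at an unadjusted p under 0.05. DESeq2 called 0, 0, 1 and 3 of them and edgeR 0. None passed either of the 29 glycolytic and insulin-induced genes, the 16 of glycogen metabolism, the 17 time-of-day genes or the 5 genes of the red cell list, with 10, 1, 3 and 0 at an unadjusted p under 0.05, where DESeq2 called 5, 0, 1 and 0 and edgeR 0.

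**Figure D5:**
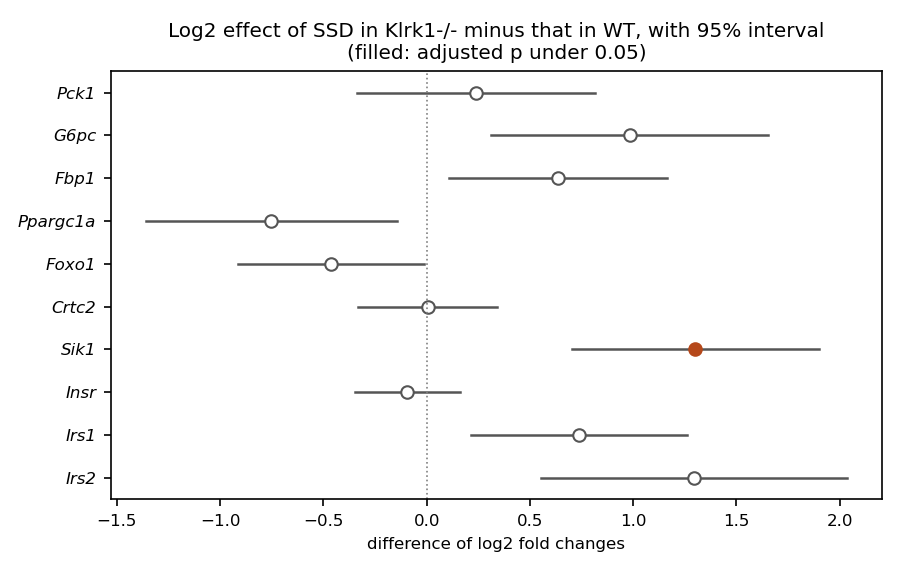
Difference between the log2 effect of SSD in Klrk1-/- mice and that in WT mice for each of the 10 genes (points), with 95% intervals (lines), filled where the limma adjusted p is under 0.05. Sik1, at 1.30, is the filled point, Irs2 lies at the same place with a wider interval, and Crtc2 lies at 0.00.

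On SSD the genotypes were compared directly, 5 WT mice against 3 Klrk1-/- mice. Of the 10 genes 1 passed, Crtc2, beside 2.9% of the 13116 genes tested, and Crtc2 was also the single gene of the 10 whose mice did not overlap, beside 17.9% of all genes. The share of all genes that passed was 0.342%, 0.663% and 0.472% without Klrk1-/- mouse 1, 2 or 3, 1.27%, 1.14% and 1.81% without WT mouse 2, 3 or 4, 5.49% without WT mouse 1 and 9.3% in DESeq2. The median log2 fold change was -0.06 for the 10 genes and 0.00 for all genes tested. Crtc2 had 651, 759, 743, 829.7 and 918 normalized counts in the WT mice and 1090.3, 1074.5 and 1106.5 in the Klrk1-/- mice. The 3 Klrk1-/- mice lay close together above all WT mice. The difference was 1.41-fold, a log2 fold change of 0.49 (SE 0.11, adjusted p = 0.04 in limma), with an exact permutation p of 0.0357, the smallest this design allows. The call was lost without WT mouse 2, 3 or 4 or any of the 3 Klrk1-/- mice (adjusted p 0.0587 to 0.157), with a fold limit of 1.5, and with equal totals (log2 fold change 0.38, adjusted p = 0.0606), which moves the median of all genes to -0.12.

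Crtc2 was higher in Klrk1-/- mice on each diet, by 0.49 on the log2 scale in both comparisons, which share no mice. Sik1 differed by -0.48 (interval from -0.95 to just below 0, limma adjusted p = 0.216), with the Klrk1-/- mice inside the range of the WT mice. G6pc differed by -0.51 (interval -0.93 to -0.08, adjusted p = 0.158) and Ppargc1a by 0.53 (interval 0.08 to 0.97, adjusted p = 0.162). With the mouse number as a replicate block Ppargc1a differed by 0.80 (limma adjusted p = 0.0286). That fit kept only mouse numbers present in each group and so left out WT mice 4 and 5. Those mice had the highest Ppargc1a of the SSD-fed WT mice, at 199.9 and 238.4 normalized counts. Irs2 differed by 0.47 (interval -0.20 to 1.14), Pck1 by -0.29 (interval -0.69 to 0.11) and Insr by 0.18 (interval from just below 0 to 0.35). The intervals were -0.28 to 0.14 for Irs1, -0.46 to 0.16 for Foxo1 and -0.39 to 0.29 for Fbp1, and without Klrk1-/- mouse 2 the log2 fold changes of Foxo1 and Fbp1 turned positive.

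Of all genes tested on SSD 1.22% were higher and 1.68% lower in Klrk1-/- mice. Of 21 gluconeogenesis enzymes 1 passed, Pck2, lower in Klrk1-/- mice at 254 ± 19.9 against 530 ± 177 normalized counts (log2 fold change -1.01, limma adjusted p = 0.043). Of 34 transcriptional regulators 1 was lower, Cebpb (-0.83), and 1 higher, the kinase Stk11, which activates the SIK family (0.36). Of 29 glycolytic and insulin-induced genes 2 were lower, among them Pfkfb3 (-1.46). In limma none of the 32 genes of the insulin signalling cascade, the 29 inhibitors and the 22 targets of FOXO1 and fasting passed. At an unadjusted p under 0.05 there were 6, 7 and 9 of them, DESeq2 called 1, 1 and 9, and edgeR called none. None of the 19 genes of glucagon and cAMP signalling and the 16 of glycogen metabolism passed in limma or edgeR either, with 5 and 4 at an unadjusted p under 0.05, and DESeq2 called 1 of the former. Of 15 immediate early genes 4 were lower in Klrk1-/- mice, with Atf3 at -2.82 and Fos at -1.62. Of 17 time-of-day genes 3 were lower, Per1 (-1.24), Bhlhe40 (-0.53) and Per2 (-0.80), and of 9 glucocorticoid-responsive genes Tsc22d3 (-1.07) and Dusp1 (-0.69) were lower. Of 6 macrophage markers 1 was lower, with sums from 5226 to 12292.5 normalized counts in WT and from 4475 to 5491 in Klrk1-/- mice. None of 6 hepatocyte markers passed, but their sums did not overlap, from 1411789 to 1787291 in WT and from 1887276 to 2052035 in Klrk1-/- mice. Their part in the level of Crtc2 was not tested.

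Over all 16 mice the 10 genes followed different genes most closely, out of 13068. The Pearson correlation of log2 values was 0.96 between Crtc2 and Tmem201, with Mtx3 and Gm50253 next, and 0.96 between Fbp1 and Ugt3a1, followed by Arfgef1 and Eif4g1. It was 0.94 between Ppargc1a and Cdip1 (then Pcf11 and Ip6k1) and 0.94 between Insr and Sema4a (then Tasor and Chd2). Foxo1 was closest to Rad50 (0.91), N4bp2l1 and Ankrd11, G6pc to Mlec (0.91), Slc35c1 and Slc25a25, and Sik1 to Acvr1 (0.90), Slc38a2 and D16Ertd472e. Irs1 was closest to Tent4a (0.86), Gm38303 and Atp1b1 and Pck1 to Mroh6 (0.81), Arl4d and Gm43860. For Irs2 the closest gene, Tifa, reached 0.72, followed by Abt1 and Arhgef18. These values describe 16 mice that share 4 groups, library depth and scaling, and none of the 10 genes is among the 3 closest genes of another.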

How the data were processed

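Whole-liver RNA of 16 mice was sequenced in single reads. Per the labels and methods, the authors used FastQC for quality, STAR for alignment to GRCm39 and FeatureCounts with GENCODE for the counts of reads in genes. The processing notes also name DESeq2. The signal the authors deposited per gene and mouse is a normalized count, in which each mouse has its own scaling factor. The labels name an mRNA library kit and the methods a total RNA kit. All 16 columns were used, and 100% of their values were whole multiples of 1 step (tolerance 0.01), which gave back the reads. For 25 pairs of mice of a group, chi-square divided by the number of genes was 14.2 to 101, above sampling noise, so no library was merged.

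Groups were taken from the labels. The main test was limma 3.58.1 with a variance trend (R 4.3.3) on log2(normalized count + 1), over genes with a mean of at least 10 in the mice of the model, with only the compared groups in it and all 16 mice for the interaction. Benjamini-Hochberg adjustment ran over all genes tested, and an adjusted p under 0.05 was called. On this scale a fold change understates that of genes with few reads. For the 10 genes an exact permutation test (two-sided) of the mice was added. Alternatives were pseudocounts of 0.5 and 10, no minimum or a minimum of 50, equal totals, quantile normalization, edgeR 4.0.16 and DESeq2 1.42.0 on the recovered reads, fold limits of 1.5 (as in the study's methods) and 2, a replicate block, all 4 groups in a single model and each mouse left out. The replicate block kept only mice whose number occurred in every compared group and left out the others. The scripts were tested on simulated data.

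The 10 genes, the 12 lists of other genes and the cell type markers were chosen with earlier results of these data known. Named from each list and comparison are up to 3 genes with the smallest adjusted p among those past the threshold, and up to 2 others, except for results that are not reported here. The union of exons, exon overlaps and transcript starts came from GENCODE M39 on GRCm39. The start and end of each gene were instead taken as deposited. No set test was run.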

Additional observations from a re-analysis of the deposited data

Results flagged for a closer look

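In the 4 NCD-fed Klrk1-/- mice, G6pc of mouse 1, at 4532 normalized counts, lay far from the other three, which were between 2937 and 3082.5. The gap to the nearest mouse was above Dixon's 95% limit for 4 samples. Of 30 groups of 4 or 5 mice looked at for the 10 genes, 1 held such a mouse, and chance gives about 1 in 20. Without this mouse the lower level of G6pc in Klrk1-/- mice on NCD still passed in limma, as did its rise on SSD.

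The effect of SSD on Sik1 differed between the genotypes, by 1.30 on the log2 scale (limma interaction, standard error 0.29, adjusted p = 0.0362), with Sik1 lower on SSD in all 5 WT mice than in any NCD-fed WT mouse, and the Klrk1-/- mice of the 2 diets overlapping. The call held in 11 of 25 other settings and was lost with equal totals (0.0688), quantile normalization (0.0543), the replicate block (0.0606) and without any of the 3 SSD-fed Klrk1-/- mice (0.0625 to 0.123).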

How the results depend on the processing

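Of 1070 values of the 10 genes under other settings, 975 kept their direction and side of the threshold, 47 lost a call with the same sign, 16 gained a call with the same sign, and 32 changed sign, among them Insr in WT mice on SSD, which with equal totals also gained a call. Causes were not tested unless stated. Each count below has the share of all genes tested beside it. A fold limit of 2 left 1 of the 3 genes in WT mice on SSD (9.01%), 0 of 3 in Klrk1-/- mice (5.46%), 3 of 7 between genotypes on NCD (1.7%) and 0 of 1 on SSD (1.15%), where a limit of 1.5 also left 0 (2.13%). Equal totals gave 5 genes for the diet in WT mice (53.7%), 6 for the diet in Klrk1-/- mice (43.7%), 0 between genotypes on SSD (3.54%) and 0 for the interaction (0.826%). The interaction also had 0 with no minimum level (0.474%) and quantile normalization (0.75%), and 2 in DESeq2 (3.52%). All 4 groups in a single model left 1 gene, Fbp1, for the diet in Klrk1-/- mice (24%), gave 4 for the diet in WT mice (41.1%, Irs2 added) and 8 between genotypes on NCD (15.3%, Insr added), where DESeq2 gave 9 (17.4%, Pck1 and Insr added).

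In WT mice on SSD, equal totals turned Pck1, G6pc, Fbp1 and Insr to 0.123, 0.011, 0.275 and 0.287, and quantile normalization to 0.274, 0.003, 0.286 and 0.067. In Klrk1-/- mice Insr turned to 0.105 with equal totals, and Pck1 to -0.014 in edgeR and -0.019 in DESeq2. The interaction of Crtc2 turned to -0.084, -0.02 and -0.007 with equal totals, quantile normalization and DESeq2, and that of Pck1 to -0.034 with quantile normalization.

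With single mice left out, 3 to 4 genes passed for the diet in WT mice (27.5 to 34.2% of all genes), 2 to 4 for the diet in Klrk1-/- mice (18.6 to 28.4%), 5 to 8 between genotypes on NCD (5.59 to 17.1%), 0 to 1 on SSD (0.342 to 5.49%) and 0 to 2 for the interaction (0.283 to 1.43%). Over these fits, the log2 fold change ranged from -0.212 to 0.089 for Fbp1 in WT mice on SSD, from -0.144 to 0.208 for Pck1 in Klrk1-/- mice on SSD, from -0.231 to 0.125 for Fbp1 and -0.273 to 0.012 for Foxo1 between genotypes on SSD, and from -0.063 to 0.083 for the interaction of Crtc2.

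Mouse numbers mark different mice, and the main tests did not pair mice by number. Deviations of same-numbered mice correlated between -0.133 and 0.246 over 13 pairs. No reference was computed for these values, so they cannot decide whether same-numbered mice are linked. A replicate block, which also left out mice whose number was missing in a compared group, gave 2 genes between genotypes on SSD (5.41%, Ppargc1a added). It gave 0 for the interaction (0.391%), and turned Pck1 in Klrk1-/- mice to -0.034 and the interaction of Crtc2 to -0.01. For Pck1 the mouse left out was NCD-fed Klrk1-/- mouse 4, and without this mouse alone the log2 fold change was also -0.034.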
